A study of Mus musculus with 12 samples.

Results

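The genes described here encode hydrolases of the lysosome, the proteins that activate or hold them, proteins of the lysosomal membrane, and Tfeb, a transcription factor of lysosome biogenesis. They were listed by name and function, with earlier results of these arrays known. All 43 listed genes were measured, among 19938 genes tested. Each was read from the array feature paired with that gene symbol alone, and for Arsb, which had 2 such features, from the brighter. The listed genes comprise 12 glycosidases, 4 sulfatases, 6 lipid hydrolases and activators, 10 proteases, 2 acid phosphatases, 8 membrane proteins and 1 transcription factor.

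RNA came from duodenal segments of strain 129 mice. The 4 groups were Onecut2 knockout at postnatal day 15, wild type at day 15, knockout at day 30 and wild type at day 30, with 3 arrays in each. In the knockout the Onecut2 gene is ablated, and the labels name no promoter or cell type that would limit the ablation. Each array carried RNA from a pool of 5 to 8 mice of mixed sex. The pools, not single mice, are the replicates, so p-values measure the spread between pools, and their number limits the precision. All groups were untreated.

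Lysosomes are acidic organelles in which proteins, sugar chains and lipids taken up by endocytosis or delivered by autophagy are broken down. In the suckling rodent, enterocytes take up milk macromolecules by endocytosis and digest them in large lysosomal vacuoles, and they lose much of this capacity around weaning. Most lysosomal hydrolases receive a mannose 6-phosphate tag in the Golgi and reach the lysosome through receptors for it. TFEB and its relatives bind E-box sequences in promoters of many lysosomal genes.

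Values are log2 expression values as deposited, and every difference below is a difference of log2 values. A gene was called when its adjusted p in limma was under 0.05 over all 19938 genes. The Onecut2 feature read 8.09, 8.13 and 8.20 on the knockout arrays at day 15, against 9.55, 9.69 and 9.68 in wild type. At day 30 it stood at -1.36 in knockout relative to wild type (SE 0.06, limma adjusted p = 8.8e-08). Whether its probes fall inside the ablated stretch was not examined. The epithelial markers Epcam and Vil1 read between 12.10 and 12.92 on every array. The pancreatic acinar marker list also gave a high mean level, between 11.94 and 13.38, so transcripts of these genes were present in each group. Whether they came from pancreas was not tested. In whole tissue, fewer cells of a type and less RNA per cell cannot be told apart.

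Between day 15 and day 30 most lysosomal genes fell in both genotypes. In the knockout 30 of 43 genes were lower at day 30 and 5 were higher, where 31.0% of all genes changed, 17.2% downward and 13.8% upward. In wild type 27 were lower and 5 higher, against 29.3% of all genes, 17.0% downward and 12.3% upward. The median difference over the 43 genes was -0.44 in knockout and -0.25 in wild type, beside medians of 0.03 and 0.02 over all genes. The deepest falls were those of the cation channel gene Mcoln3, the cysteine protease gene Ctsl and the sialidase gene Neu1. Of the genes that fell, 26 did so in both genotypes, which is 86.7% of the knockout list and 96.3% of the wild type list. Over all genes 2636 were lower in both (13.2% of the 19938), out of 3425 lower in knockout and 3394 lower in wild type. Every day 30 pool lay below every day 15 pool for 35 of the 43 genes in knockout (22.0% of all genes) and for 29 in wild type (23.1% of all genes), and above for 5 in knockout (20.9% of all genes) and 7 in wild type (20.7% of all genes). Centring each array on its median shifted all values upward with age, so that 4068 of all genes were higher and 2815 lower in knockout, and 4057 higher and 2662 lower in wild type. Of the 43 genes, 30 were then lower and 6 higher in knockout, and 23 lower and 7 higher in wild type. Without centring, 32 of the 35 knockout calls and 27 of the 32 wild type calls held whichever array was left out. The others were Gm2a, Ids and Ctsh in knockout, and Ids, Manba, Ctsz, Scarb2 and Fuca1 in wild type.

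**Figure D1:**
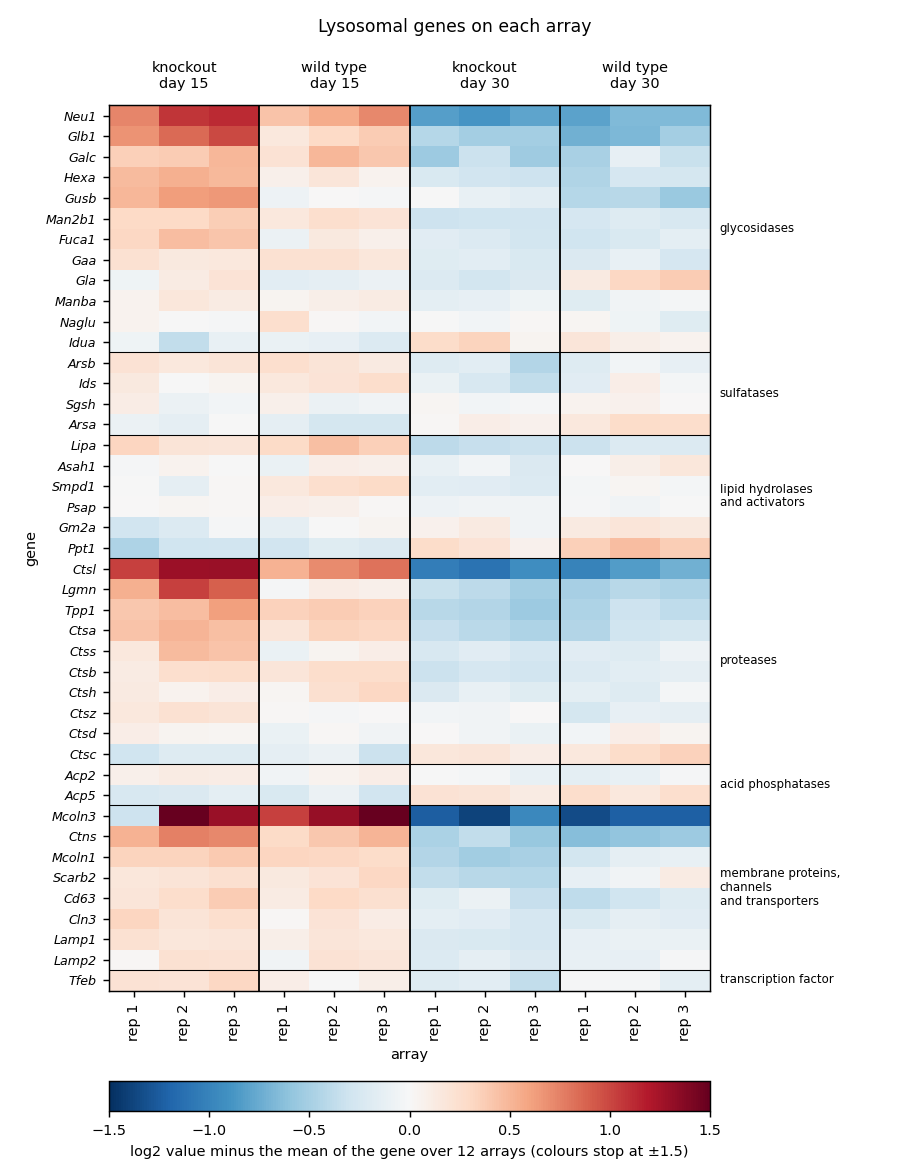
Each row is 1 of the 43 lysosomal genes and each column 1 array; colour gives the log2 value minus that gene's mean over 12 arrays, with the knockout arrays left of the wild type arrays at each age. Most genes are above their mean on the 6 day 15 arrays and below it on the 6 day 30 arrays. Ppt1, Ctsc, Acp5 and Idua are among those that run the other way.

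Promoter sequence was examined because these genes fell together and because the factor TFEB is known to bind the E-box core CACGTG. RefSeq windows of 300 bases (250 before to 50 after a listed start site, build GRCm38.p6) were at hand for 40 of the 43 genes. CACGTG, which reads the same on both strands, lay in a window of 13 of the 40 (32.5%), compared with 8.09% of the 27025 genes in the table and 8.91% of its 17491 protein-coding genes. The longer form TCACGTG or its reverse complement CACGTGA, which contains the core, lay in 12 of the 40 (30.0%). It lay in 4.29% of all genes in the table and 5.00% of its protein-coding genes. A match of letters is a description and not a binding site. The 13 genes were Glb1, Gaa, Gla, Naglu, Sgsh, Arsa, Ctsa, Ctsd, Ctsl, Lgmn, Lamp1, Mcoln1 and Cln3, and Lamp1 held 4 copies. With age, in knockout 9 of the 13 with it fell, as did 19 of the 27 without it, and in wild type 8 of 13 and 17 of 27 fell.

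The 250 bases before the start site are shown for Ctsl, Glb1 and Lgmn, the genes with the largest called changes among the 13, with the CACGTG core in capitals. For Lgmn the table lists 2 start sites, and the stretch shown belongs to the one whose window holds the core. Ctsl lies at chr13:64370521-64370770 on the minus strand with the core's first base at -236, Glb1 at chr9:114400828-114401077 on the plus strand with it at -48, and Lgmn at chr12:102439093-102439342 on the minus strand with it at -49. The longer form is present in Glb1 and Lgmn and not in Ctsl.
Ctsl: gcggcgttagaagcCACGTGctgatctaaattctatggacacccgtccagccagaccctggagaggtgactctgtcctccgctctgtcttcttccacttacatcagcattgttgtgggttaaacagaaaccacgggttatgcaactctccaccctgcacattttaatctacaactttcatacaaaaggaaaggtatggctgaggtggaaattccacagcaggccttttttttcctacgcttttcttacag
Glb1: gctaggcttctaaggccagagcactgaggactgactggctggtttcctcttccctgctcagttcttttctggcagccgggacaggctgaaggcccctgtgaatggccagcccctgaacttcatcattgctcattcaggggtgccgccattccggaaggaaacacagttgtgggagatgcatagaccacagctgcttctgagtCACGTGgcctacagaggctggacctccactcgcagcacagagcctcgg
Lgmn: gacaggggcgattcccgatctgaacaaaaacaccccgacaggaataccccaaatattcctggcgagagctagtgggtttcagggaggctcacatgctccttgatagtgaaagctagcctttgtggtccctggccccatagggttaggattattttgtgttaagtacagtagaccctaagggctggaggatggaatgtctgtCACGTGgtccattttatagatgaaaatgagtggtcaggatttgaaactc

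Among the 12 glycosidases, which cut sugar chains from glycoproteins and glycolipids, 10 fell and 1 rose in knockout, and 9 fell and 1 rose in wild type. Neu1, the lysosomal sialidase, read 8.54, 8.48 and 8.58 on the knockout arrays at day 30, against 10.10, 10.44 and 10.48 at day 15. On the wild type arrays it read 8.56, 8.70 and 8.71 at day 30, against 9.80, 9.92 and 10.09 at day 15. The ages did not overlap in either genotype, and the difference was -1.81 in knockout (SE 0.10, limma adjusted p = 4.5e-08) and -1.28 in wild type (SE 0.10, limma adjusted p = 9.1e-07). Glb1, the acid beta-galactosidase, read 8.72, 8.63 and 8.63 in knockout at day 30, against 9.82, 9.99 and 10.14 at day 15. In wild type it read 8.42, 8.47 and 8.64 at day 30, against 9.30, 9.44 and 9.53 at day 15. It fell by 1.33 in knockout (SE 0.09, limma adjusted p = 2.4e-07) and fell by 0.91 in wild type (SE 0.09, limma adjusted p = 6.1e-06). Galc, which removes galactose from galactosylceramide, differed by -0.87 in knockout and by -0.68 in wild type (SE 0.10 for each).

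Smaller falls in both genotypes were those of Gusb (beta-glucuronidase), Hexa (the alpha subunit of beta-hexosaminidase), Man2b1 (alpha-mannosidase), Fuca1 (alpha-fucosidase), Gaa (the glycogen-degrading acid alpha-glucosidase) and Manba (beta-mannosidase). Their differences lay between -0.78 and -0.23 in knockout and between -0.44 and -0.18 in wild type. Hexa marked the larger end in knockout and Manba the smaller end in both. Naglu, which acts on heparan sulfate, was not called in either genotype (-0.01 in knockout and -0.15 in wild type). Idua, the iduronidase of dermatan and heparan sulfate breakdown, rose by 0.39 in knockout (SE 0.09, limma adjusted p = 0.0047) and had a difference of 0.25 in wild type that did not pass (limma adjusted p = 0.055). Gla, the alpha-galactosidase of globotriaosylceramide breakdown, moved in opposite directions and is described with the genotype comparisons.

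**Figure D2:**
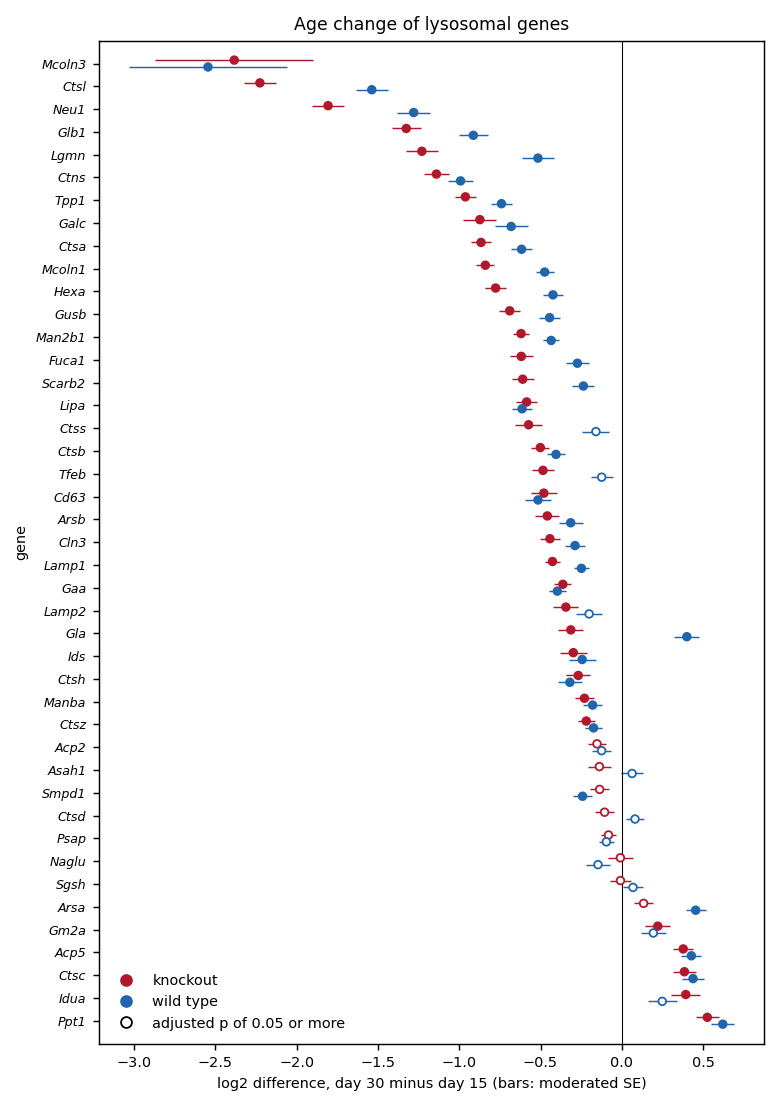
Log2 difference between day 30 and day 15 for each of the 43 genes in knockout (red) and wild type (blue), with moderated SE as bars and open symbols for genes that were not called. Points run from -2.54 for Mcoln3 in wild type up to 0.62 for Ppt1 in wild type, and most lie left of 0 in both genotypes.

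The proteases followed the same direction, with 8 of 10 lower and 1 higher in knockout, and 7 lower and 1 higher in wild type. Ctsl, cathepsin L, read 9.75, 9.68 and 9.85 in knockout at day 30, against 11.81, 12.07 and 12.08 at day 15. In wild type its values were 9.78, 9.95 and 10.06 at day 30, against 11.31, 11.49 and 11.60 at day 15. The difference was -2.23 in knockout (SE 0.10, limma adjusted p = 6.3e-09) and -1.54 in wild type (SE 0.10, limma adjusted p = 1.5e-07), 4.68-fold and 2.90-fold lower at day 30. Lgmn, the asparaginyl endopeptidase legumain that also trims cathepsins, read 10.89, 10.84 and 10.72 in knockout at day 30, against 11.76, 12.25 and 12.12 at day 15. Its wild type values were 10.73, 10.81 and 10.76 at day 30, against 11.21, 11.34 and 11.30 at day 15. Lgmn fell by 1.23 in knockout (SE 0.10, limma adjusted p = 1.3e-06) and fell by 0.52 in wild type (SE 0.10, limma adjusted p = 0.0016).

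Tpp1, a tripeptidyl peptidase, fell by 0.96 in knockout and fell by 0.74 in wild type (SE 0.07 for each). Ctsa, the serine carboxypeptidase that holds beta-galactosidase and sialidase in a complex, fell by 0.87 in knockout and fell by 0.62 in wild type (SE 0.06 for each). Ctsb, Ctsh and Ctsz, further cysteine cathepsins, fell in both genotypes by smaller amounts, with differences between -0.50 and -0.22 in knockout and between -0.40 and -0.17 in wild type. Ctss, a cathepsin of antigen-presenting cells, fell in knockout (-0.57, SE 0.08, limma adjusted p = 1.7e-04) and had a difference of -0.16 in wild type that did not pass (limma adjusted p = 0.18). Ctsc, the dipeptidyl peptidase that activates granzymes and other serine proteases, went against the group. It rose by 0.38 in knockout (SE 0.07, limma adjusted p = 8.7e-04) and by 0.44 in wild type (SE 0.07, limma adjusted p = 3.2e-04). The aspartic protease gene Ctsd was not called (-0.11 in knockout and 0.08 in wild type).

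All 8 membrane genes were lower with age in knockout, and 7 of them in wild type. Mcoln3, a cation channel of endosomes and lysosomes, read 5.86, 5.71 and 6.13 in knockout at day 30, against 6.79, 9.66 and 8.39 at day 15. Its wild type values were 5.76, 5.87 and 5.87 at day 30, against 8.12, 8.40 and 8.62 at day 15. The 3 knockout pools at day 15 were spread widely, with replicate 1 far below the other two and replicate 2 above every wild type pool. The difference was -2.38 in knockout (SE 0.48, limma adjusted p = 0.0021) and -2.54 in wild type (SE 0.48, limma adjusted p = 0.0014). Without knockout replicate 1 at day 15 the knockout difference was -3.13, and without replicate 2 it was -1.69, both still called. All 6 day 30 values lay under 6.20, the 25th percentile of gene means, where array signals can flatten, so the fold may be understated.

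Ctns, the exporter of cystine from lysosomes, read 8.82, 8.92 and 8.72 in knockout at day 30, against 9.81, 10.05 and 10.01 at day 15. In wild type it read 8.66, 8.70 and 8.75 at day 30, against 9.58, 9.70 and 9.80 at day 15. It fell by 1.14 in knockout (SE 0.08, limma adjusted p = 3.2e-07) and fell by 0.99 in wild type (SE 0.08, limma adjusted p = 1.1e-06). The other cation channel gene, Mcoln1, fell by 0.84 in knockout and fell by 0.47 in wild type (SE 0.06 for each). Scarb2, an abundant glycoprotein of the lysosomal membrane, fell by 0.61 in knockout and fell by 0.24 in wild type (SE 0.07 for each). Cd63, a tetraspanin, fell in both (-0.48 in knockout and -0.52 in wild type), as did Cln3, a membrane protein mutated in Batten disease (-0.44 in knockout and -0.29 in wild type). Lamp1, the abundant coat glycoprotein of the membrane, fell by 0.43 in knockout and fell by 0.25 in wild type. The related Lamp2 fell in knockout (-0.34, limma adjusted p = 0.0043) and had a difference of -0.20 in wild type that did not pass (limma adjusted p = 0.071).

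Sulfatases, lipid enzymes and acid phosphatases changed less evenly. Of the 4 sulfatases, Arsb (arylsulfatase B, of dermatan sulfate) and Ids (iduronate sulfatase) fell in both genotypes. The differences were -0.46 in knockout and -0.31 in wild type for Arsb, and -0.30 in knockout and -0.24 in wild type for Ids. The wild type call of Ids held in 4 of the 12 fits that left out an array. Arsa, the sulfatase of cerebroside sulfate, rose in wild type (0.45, SE 0.06, limma adjusted p = 8.4e-05) and had a difference of 0.13 in knockout that did not pass (limma adjusted p = 0.12). Sgsh, the heparan sulfamidase, was not called in either. Among the 6 lipid genes, Lipa, the acid lipase that frees cholesterol and fatty acids from lipoproteins, fell by 0.59 in knockout and fell by 0.61 in wild type (SE 0.06 for each). Ppt1, which removes fatty acids from proteins, rose instead. It read 10.83, 10.76 and 10.62 in knockout at day 30, against 10.09, 10.26 and 10.27 at day 15, and 10.91, 11.02 and 10.92 in wild type at day 30, against 10.27, 10.37 and 10.34 at day 15. The rise was 0.53 in knockout (SE 0.07, limma adjusted p = 8.3e-05) and 0.62 in wild type (SE 0.07, limma adjusted p = 2.0e-05).

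Smpd1, the acid sphingomyelinase, fell in wild type (-0.24, limma adjusted p = 0.0065), and its knockout difference of -0.14 did not pass (limma adjusted p = 0.095). Gm2a, the activator that presents ganglioside to hexosaminidase, rose in knockout (0.22, limma adjusted p = 0.043), with 0.19 in wild type not passing (limma adjusted p = 0.075). The ages overlapped in knockout, and the knockout call of Gm2a held in 4 of the 12 fits that left out an array. Psap, the precursor of the saposin activators, and Asah1, the acid ceramidase, were called in neither genotype. Acp5, the tartrate-resistant acid phosphatase of macrophages and osteoclasts, rose by 0.38 in knockout and by 0.43 in wild type (SE 0.06 for each), while Acp2, the lysosomal acid phosphatase, was not called. Tfeb read 7.57, 7.61 and 7.40 in knockout at day 30, against 7.98, 7.97 and 8.08 at day 15. It fell in knockout (-0.48, SE 0.07, limma adjusted p = 1.2e-04) and had a difference of -0.12 in wild type that did not pass (limma adjusted p = 0.19).

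**Figure D3:**
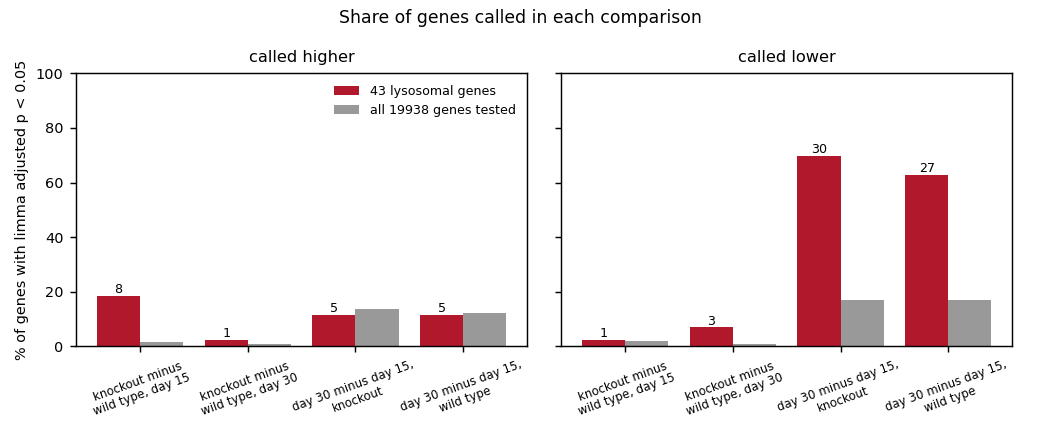
Percentage of genes called higher (left) and lower (right) in each comparison, for the 43 lysosomal genes (red, with their count) and for all 19938 genes tested (grey). The red bars for genes lower with age, 30 in knockout and 27 in wild type, stand above the grey bars beside them.

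Other tissue components changed with age on the same arrays. The mean level of 12 smooth muscle markers lay between 9.75 and 9.78 in knockout at day 30, against 10.17 to 10.34 at day 15, and between 9.75 and 9.88 in wild type at day 30, against 10.44 to 10.54 at day 15. All 12 were called lower with age in each genotype, among them Myh11, the smooth muscle myosin (-0.67 in knockout and -0.90 in wild type). The mean of 13 epithelial markers ran the other way, at 11.73 to 11.76 in knockout at day 30, against 11.60 to 11.63 at day 15. In wild type it was 11.72 to 11.76 at day 30, against 11.51 to 11.56 at day 15. Of these 13 markers, 6 were called higher and 1 lower in knockout, and 9 higher and 1 lower in wild type. Both means separated the ages completely. When the mean of the smooth muscle markers was added to the limma model, 1 of 43 genes remained lower in knockout (Ctsl, -1.96, SE 0.36, limma adjusted p = 0.033), where 143 of all genes were called. In wild type 0 remained lower, where 23 of all genes were called, and 2 of the 43 were lower at an unadjusted p under 0.05. With the epithelial mean in the model, 3 remained lower in knockout (Ctsl, Neu1 and Mcoln1), where 259 of all genes were called. In wild type 0 remained lower, where 29 of all genes were called, and 3 of the 43 were lower at an unadjusted p under 0.05. For these unadjusted counts the share over all genes was not counted. Age and these means cannot be told apart in these arrays. The mean of 13 macrophage markers, a cell type rich in lysosomes, overlapped between the ages, at 8.23 to 8.36 in knockout at day 30, against 8.21 to 8.38 at day 15, and 8.29 to 8.41 in wild type at day 30, against 8.31 to 8.43 at day 15. Its defining markers Csf1r and Adgre1 were present on every array, at 7.88 or above. Single macrophage markers went both ways, with 3 of 13 called higher and 3 lower in knockout, and 2 higher and 3 lower in wild type. In wild type the lysozyme gene Lyz2 (1.22) and Cd14 (0.43) rose, and Mrc1 (-0.59), Cx3cr1 (-0.33) and Adgre1 (-0.23) fell. In knockout Csf1r fell (-0.20, SE 0.07, limma adjusted p = 0.049). The 6 lymphocyte markers had a mean of 8.93 to 8.97 in knockout at day 30, against 7.08 to 7.26 at day 15, and of 9.04 to 9.05 in wild type at day 30, against 6.89 to 7.18 at day 15, with 5 called higher in each genotype. The mean of 8 markers of antigen-presenting cells was 9.09 to 9.17 in knockout at day 30, against 8.77 to 8.92 at day 15, and 9.06 to 9.13 in wild type at day 30, against 8.75 to 9.0 at day 15. Of these 8, 5 were called higher in knockout and 1 in wild type. The part of lymphocytes and antigen-presenting cells in the age changes was not tested.

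At day 15 some of the glycosidases and proteases were higher in the knockout than in wild type. Of the 43 genes, 8 were higher and 1 was lower, where 3.83% of all genes changed, 1.81% upward and 2.03% downward. The 8 were Lgmn, Gusb, Glb1, Ctsl, Neu1, Hexa, Fuca1 and Ctss, 5 glycosidases and 3 proteases, and the gene that was lower was Smpd1. The 8 were 1.26-fold to 1.69-fold higher, and Smpd1 was 1.21-fold lower. The median over the 43 genes was 0.05, beside -0.01 over all genes, and 27 of the 43 had a positive value. With each array centred on its median, 9 of the 43 were higher and 1 lower, and over all genes 415 were higher and 277 lower. For 17 genes every knockout pool lay above every wild type pool, where 9.09% of all genes did so, and for 2, Ids and Smpd1, every knockout pool lay below, where 12.2% of all genes did so.

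Lgmn read 11.76, 12.25 and 12.12 on the knockout arrays, against 11.21, 11.34 and 11.30 on the wild type arrays, all 3 knockout values being higher. The difference was 0.76 (SE 0.10, limma adjusted p = 8.7e-04). Gusb read 9.79, 9.92 and 9.94 in knockout, against 9.22, 9.30 and 9.27 in wild type. This narrow spread gave a difference of 0.62 (SE 0.06, limma adjusted p = 1.2e-04). Glb1 had a difference of 0.56 (SE 0.09, limma adjusted p = 0.0034) from the values given above, with no overlap. Ctsl, also without overlap, had one of 0.52 (SE 0.10, limma adjusted p = 0.010).

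Hexa read 10.94, 11.00 and 10.96 in knockout, against 10.54, 10.65 and 10.52 in wild type. The knockout values lay close together and above all wild type values, with a difference of 0.40 (SE 0.06, limma adjusted p = 0.0035). Fuca1 read 11.51, 11.66 and 11.62 in knockout, against 11.11, 11.34 and 11.28 in wild type, a difference of 0.35 (SE 0.07, limma adjusted p = 0.015). Neu1 had a difference of 0.40 (SE 0.10, limma adjusted p = 0.045), and its lowest knockout pool, at 10.10, was just above the highest wild type pool, at 10.09. Ctss read 11.78, 12.10 and 12.05 in knockout, against 11.52, 11.67 and 11.73 in wild type, a difference of 0.34 (SE 0.08, limma adjusted p = 0.043). Smpd1 read 8.23, 8.10 and 8.25 in knockout, against 8.39, 8.48 and 8.52 in wild type. It was the gene called lower, at -0.27 (SE 0.06, limma adjusted p = 0.021).

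The count at day 15 depended on single pools. It was 4 without knockout replicate 2 (340 of all genes called), and 5 without knockout replicate 3 (445) or wild type replicate 1 (505). Lgmn, Gusb, Glb1 and Hexa were called whichever array was left out. Neu1 was called in 2 and Ctss in 1 of the 12 fits that left out an array. Ctsl was lost without knockout replicate 2 (limma adjusted p = 0.058). Fuca1 was lost without knockout replicate 2 or 3 or wild type replicate 1, and Smpd1 without knockout replicate 2 or wild type replicate 2 or 3. Knockout replicate 1 was the lowest of its group for each of the 8 higher genes, and wild type replicate 1 for 7 of them. Over all genes, knockout replicate 1 was the lowest of its group for 29.5%.

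**Figure D4:**
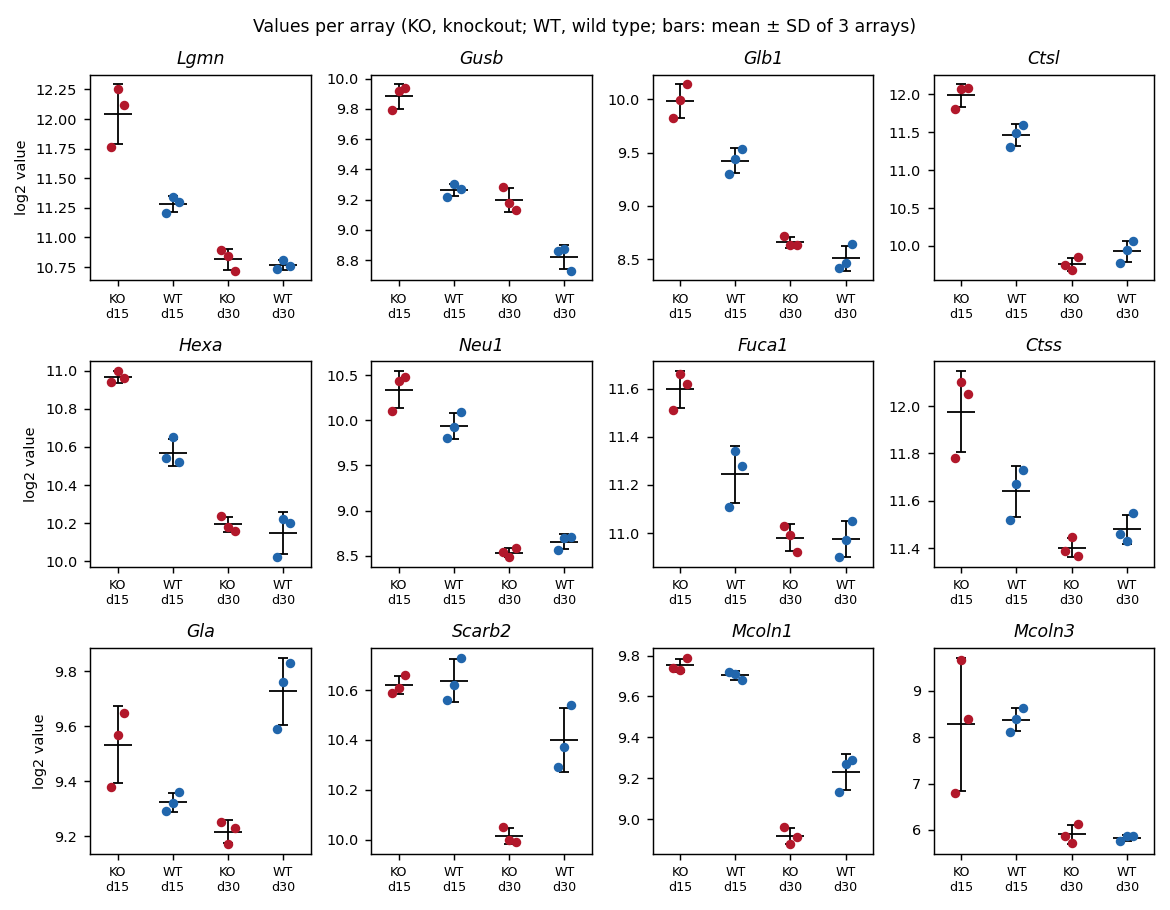
Log2 values of 12 lysosomal genes on each array, with the mean and SD of the 3 arrays of a group as black bars, knockout in red and wild type in blue. The 3 knockout values at day 15 lie above the wild type values for the first 8 genes and for Gla and Mcoln1, and Mcoln3 shows the widest spread, 6.79 to 9.66 in knockout at day 15.

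Limma called no sulfatase, acid phosphatase or membrane gene between genotypes at day 15, and 3 of these 14 genes were higher at an unadjusted p under 0.05. Ctns came closest among the membrane genes, with every knockout pool above every wild type pool and a difference of 0.26 (SE 0.08, limma adjusted p = 0.099). Ctsz, likewise without overlap, had a difference of 0.19 (SE 0.05, limma adjusted p = 0.070). Lamp1 and Lamp2, the main membrane glycoproteins, had differences of 0.05 and 0.04 (SE 0.05 and 0.08). Tfeb read 7.98, 7.97 and 8.08 in knockout, against 7.87, 7.76 and 7.85 in wild type, which did not overlap but did not pass (0.18, SE 0.07, limma adjusted p = 0.20). Mcoln3 had a difference of -0.10 with an SE of 0.48, so a genotype difference was not detectable in it at this spread.

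The marker lists also differed between genotypes at day 15. The smooth muscle mean lay between 10.17 and 10.34 in knockout and between 10.44 and 10.54 in wild type, with all 12 markers lower in knockout and 2 called. The epithelial mean lay between 11.60 and 11.63 in knockout and between 11.51 and 11.56 in wild type, with 0 of 13 markers called by limma and 4 higher at an unadjusted p under 0.05. The pancreatic acinar mean was lower in knockout without overlap, at 11.94 to 12.44 in knockout and 12.65 to 12.73 in wild type. Its 9 markers had a median difference of -0.49, with limma calling 0 of them and 6 lower at an unadjusted p under 0.05, and the elastase gene Cela1 read 10.81, 10.15 and 10.82 in knockout, against 11.57, 11.63 and 11.74 in wild type (-1.06, SE 0.27, limma adjusted p = 0.051). The macrophage mean overlapped, at 8.21 to 8.38 in knockout and 8.31 to 8.43 in wild type. In that list 1 of 13 markers was called, Lyz2, which was higher in knockout (0.77). The marker genes Lyz2, Cd14, Mrc1, Cx3cr1 and Cela1 are named after their values were seen. With the macrophage mean in the model all 9 lysosomal calls remained. With the smooth muscle mean none of the 9 remained in limma, where 64 of all genes were called, against 764 without it. In that fit 12 of the 43 genes were higher at an unadjusted p under 0.05, with no share over all genes counted. The differences of the 8 higher genes were then 0.32 to 0.72, and the SE of Gusb, for example, was 0.12 (0.64, limma adjusted p = 0.052). With the epithelial mean Lgmn (1.05, limma adjusted p = 0.019) and Gusb (0.83, limma adjusted p = 0.0051) remained called, where 111 of all genes were called. The smooth muscle, epithelial and pancreatic acinar means did not overlap between the genotypes at day 15. Genotype and these means therefore cannot be told apart there. With the pancreatic acinar mean, chosen after seeing the data, Lgmn (0.71, limma adjusted p = 0.019), Gusb (0.60, limma adjusted p = 0.0032), Glb1 (0.56, limma adjusted p = 0.043) and Hexa (0.43, limma adjusted p = 0.027) remained higher, where 221 of all genes were called. Smpd1 was then at -0.23 (limma adjusted p = 0.23), and 1 of the 43 was lower at an unadjusted p under 0.05.

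At day 30, 3 of the 43 lysosomal genes were lower and 1 was higher in knockout, where 1.98% of all genes changed, 0.943% downward and 1.04% upward. The median over the 43 genes was -0.08, beside -0.004 over all genes. For 13 genes every knockout pool lay below every wild type pool, where 7.49% of all genes did so, and for 2, Gusb and Ctsz, every knockout pool lay above, where 7.95% of all genes did so. Gla read 9.25, 9.17 and 9.23 in knockout, against 9.59, 9.76 and 9.83 in wild type. It was lower in each knockout pool, with a difference of -0.51 (SE 0.08, limma adjusted p = 0.0033). Scarb2 read 10.05, 10.00 and 9.99 in knockout, against 10.29, 10.37 and 10.54 in wild type, a difference of -0.39 (SE 0.07, limma adjusted p = 0.0099). Mcoln1 read 8.96, 8.88 and 8.91 in knockout, against 9.13, 9.27 and 9.29 in wild type. It was also lower without overlap, at -0.31 (SE 0.06, limma adjusted p = 0.011), and this call was lost without wild type replicate 2 (limma adjusted p = 0.053) or replicate 3 (limma adjusted p = 0.062).

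Gusb was the gene that was higher in knockout at day 30. It read 9.28, 9.18 and 9.13 in knockout, against 8.86, 8.87 and 8.73 in wild type, a difference of 0.38 (SE 0.06, limma adjusted p = 0.0073). It was thus higher in knockout at both ages. The other 7 genes that were higher at day 15 had differences at day 30 between -0.17 (Ctsl) and 0.15 (Glb1), and none of these passed. The smooth muscle, epithelial and macrophage means of the genotypes overlapped at day 30, and all 4 calls remained with each of the 3 means in the model. Over both ages, 31 of the 43 genes were called in neither genotype comparison.

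**Figure D5:**
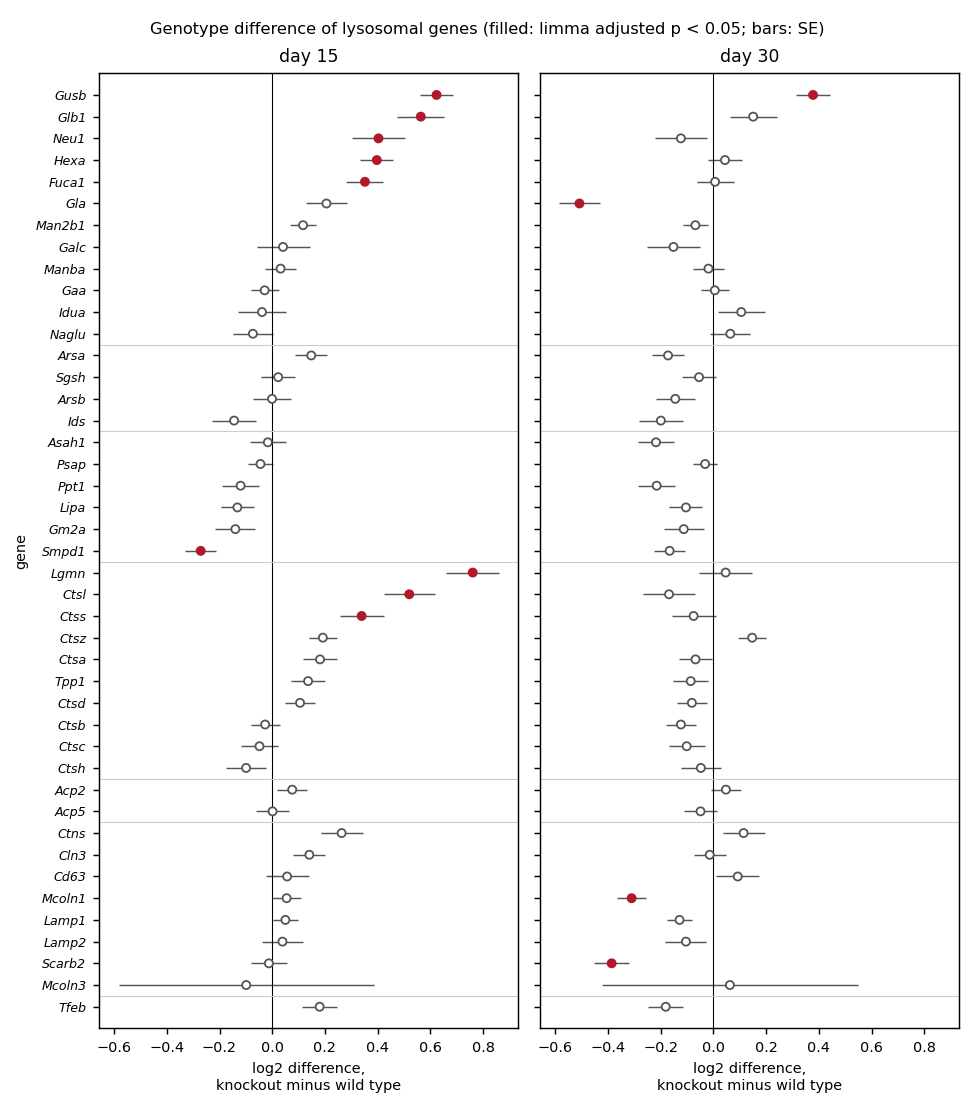
Log2 difference between knockout and wild type for the 43 genes at day 15 (left) and day 30 (right), grouped by function, with moderated SE as bars and filled symbols for called genes. Called genes at day 15 lie mostly right of 0, up to 0.76 for Lgmn, and 3 of the 4 called at day 30 lie left of it, down to -0.51 for Gla.

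The difference between the genotype effects of the ages was tested directly, as the effect at day 30 minus the effect at day 15. Of 43 genes, limma called 1 lower and 0 higher, where 0.456% of all genes were called, 0.226% lower and 0.231% higher. At an unadjusted p under 0.05, 18 of the 43 were lower and 0 higher, but the share over all genes at that threshold was not counted. The called gene was Gla, at -0.71 (SE 0.11, limma adjusted p = 0.012). At day 15 its knockout values of 9.38, 9.57 and 9.65 lay above the wild type values of 9.29, 9.32 and 9.36, a difference of 0.21 that did not pass (SE 0.08, limma adjusted p = 0.20). With age Gla fell by 0.31 in knockout (SE 0.08, limma adjusted p = 0.0072) and rose by 0.40 in wild type (SE 0.08, limma adjusted p = 0.0015). Its call in the difference of effects held whichever array was left out. It was lost with the mean of the smooth muscle markers in the model (-0.80, limma adjusted p = 0.074) and with that of the epithelial markers (-0.76, limma adjusted p = 0.23). It held with the macrophage mean (-0.73, limma adjusted p = 0.0042) and with the pancreatic acinar mean (-0.73, limma adjusted p = 0.022).

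Gla lies on the X chromosome, as do Ids and Lamp2, and the pools were of mixed sex. Xist, which is transcribed from the inactive X of females, read 10.66, 10.33 and 10.81 in knockout at day 30, against 9.26, 10.67 and 9.53 in wild type. At day 15 it read 10.43, 10.61 and 10.78 in knockout, against 11.37, 10.25 and 10.93 in wild type. Xist thus varied between pools. The sex makeup of each pool is not used here, and its part in the Gla result was not tested. Lgmn (-0.71, SE 0.14, limma adjusted p = 0.053), Ctsl (-0.69, SE 0.14, limma adjusted p = 0.054) and Mcoln1 (-0.36, SE 0.08, limma adjusted p = 0.074) came next and did not pass. Without knockout replicate 1 at day 15, 5 of the 43 genes passed (Gla, Lgmn, Ctsl, Neu1 and Ctss), where 123 of all genes were called. Without wild type replicate 1 at day 30, 3 passed (Gla, Ctsl and Mcoln1), where 85 of all genes were called. With all arrays 91 were called. Over the 43 genes the median was -0.15, beside 0.01 over all genes, and 33 had a negative value.

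Further lysosomal genes outside the 43 were listed by function, 63 in all, in lists of the proton pump, other hydrolases, sorting, other membrane proteins and relatives of Tfeb. With age 23 of the 63 fell and 8 rose in knockout, and 25 fell and 7 rose in wild type. Over all genes, as given above, 17.2% fell and 13.8% rose in knockout, and 17.0% fell and 12.3% rose in wild type. Of 16 genes of the proton pump that acidifies the lysosome, 4 fell and 1 rose in knockout, and 6 fell and 1 rose in wild type. Its subunit gene Atp6v1b2 fell by 0.98 in knockout and fell by 0.77 in wild type (SE 0.07 for each), while Atp6v0a2 rose by 0.43 in knockout and by 0.42 in wild type. Limma called none of the 16 between genotypes at either age, and at an unadjusted p under 0.05 there were 2 higher at day 15 and 1 lower at day 30. Of 9 sorting genes, 3 fell and 4 rose in knockout, and 3 fell and 2 rose in wild type. Igf2r, a receptor for mannose 6-phosphate, fell by 0.89 in knockout and fell by 0.64 in wild type, and Gga2, an adaptor for such receptors, fell by 0.94 in knockout and fell by 0.54 in wild type.

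Among 20 other hydrolases and cofactors, 3 were higher and 2 lower in knockout at day 15, where 1.81% and 2.03% of all genes were. Ggh, which removes glutamates from folates, read 9.92, 10.37 and 10.17 in knockout, against 9.04, 9.37 and 9.38 in wild type, with no overlap (0.89, SE 0.17, limma adjusted p = 0.013). Galns, a sulfatase of keratan sulfate, had a difference of 0.46 (SE 0.08, limma adjusted p = 0.0075). Ctse, an aspartic protease of endosomes, was lower in knockout at day 15 (-0.52, limma adjusted p = 0.040) and at day 30 (-0.70, limma adjusted p = 0.011). Among 15 other membrane genes, Slc17a5, the exporter of sialic acid from lysosomes, had the largest difference. It read 11.23, 11.40 and 11.25 in knockout at day 15, against 9.65, 10.13 and 10.24 in wild type (1.29, SE 0.12, limma adjusted p = 6.9e-05). At day 30 it read 8.67, 8.79 and 8.67 in knockout, against 8.57, 8.75 and 8.71 in wild type, and the groups overlapped. Slc36a1, a proton-coupled amino acid transporter, was higher in knockout at day 30, at 10.02, 9.70 and 9.53 against 8.93, 8.74 and 8.74 in wild type (0.95, SE 0.10, limma adjusted p = 2.3e-04).

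Of the 3 relatives of Tfeb, Tfec had the largest change. It read 6.02, 5.96 and 5.95 in knockout at day 30, against 9.12, 9.53 and 9.56 at day 15, and 5.97, 5.58 and 5.74 in wild type at day 30, against 8.74, 8.90 and 8.97 at day 15. It fell by 3.43 in knockout and fell by 3.11 in wild type (SE 0.12 for each). As for Mcoln3, all 6 day 30 values lay under 6.20, so the fold may be understated. At day 15 Tfec was higher in knockout (0.53, SE 0.12, limma adjusted p = 0.028). Tfe3 rose with age by 0.24 in knockout and by 0.29 in wild type. Of 5 genes of apical endocytosis in suckling enterocytes, which deliver milk protein to lysosomes, 4 fell with age in knockout and 3 in wild type, and 2 were higher in knockout at day 15. Mamdc4, known in rats as endotubin, an apical endosomal protein, read 10.80, 10.79 and 10.54 in knockout at day 15, against 8.16, 8.48 and 8.80 in wild type (2.23, SE 0.13, limma adjusted p = 5.7e-07). Its values at day 30 lay between 6.65 and 6.74 in knockout and between 6.65 and 6.82 in wild type.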

How the data were processed

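Each deposited value is the log2 expression of 1 array feature, which the authors computed by RMA in Affymetrix Expression Console 1.1, per the submitters' processing notes. RMA subtracts background, gives all arrays 1 distribution of probe values and combines the probes of a feature, so a shift shared by most genes is removed and bright or dim genes have compressed differences. The log base was taken as 2 from that method. Array medians lay between 7.20 and 7.25 and correlations between arrays were 0.9719 to 0.9978. Per the labels' protocols, total RNA was extracted with Trizol and 5.5 micrograms per pool were labelled.

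Of 35557 features, 21789 carried exactly 1 gene symbol, 1621 several and 12147 none. Where a gene had more than 1 feature (999 genes), the brightest by its mean over 12 arrays was used, which left 19938 genes. Chromosomes and promoters came from RefSeq (GRCm38.p6).

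Limma 3.58.1 in R 4.3.3 estimated 4 group means from the 12 arrays together (8 residual degrees of freedom), and p-values were adjusted by Benjamini-Hochberg over all genes. Counts at an unadjusted p under 0.05 were made for the listed genes and markers only, with no share over all genes. The code was tested on simulated data. Same-numbered replicates correlated over 0.1 in 7 of 18 pairs (range -0.25 to 0.36), and the main model did not pair the pools by number. Between genotypes at day 15 the same-numbered values were 0.36, -0.01 and 0.26, and unlike-numbered ones ran from -0.36 to 0.19. The 43 genes and all lists were chosen with earlier results of these data known. Any of the 43 could be named. From each further list, up to 3 called genes with the largest difference and no overlap were named per comparison. Some genes of those lists are not reported here. Alternatives were moderation by trend or robustly, a filter on dim genes, the mean of all features, median centring, only the arrays compared, the replicate number as a block, array weights, 4 marker means as covariates (the pancreatic one added after seeing the data) and leaving out each array.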

Additional observations from a re-analysis of the deposited data

Results flagged for a closer look

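Differences between the genotype effects at day 30 and at day 15 that passed limma's test over all genes were seen for Gla and for 4 lysosomal or endocytic genes outside the 43. For Gla the effect at day 30 minus that at day 15 was -0.714. The alpha-mannosidase gene Man2b2 had -0.561 (limma adjusted p = 0.040), the sialic acid exporter gene Slc17a5 had -1.256 (limma adjusted p = 0.0059), the endocytic adaptor gene Dab2 had -0.942 (limma adjusted p = 0.034) and Mamdc4 had -2.251 (limma adjusted p = 9.3e-05). Each was lower at day 30 relative to day 15 in knockout than in wild type. Groups of 3 arrays were not tested for outlying pools.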

How the results depend on the processing

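Over the alternatives other than the marker means, the called genes kept their direction. At day 15, with only the 6 arrays compared, limma called 5 of the 43 genes higher and 0 lower (2 lower at an unadjusted p under 0.05; 480 of all genes called), and array weights called 1218 of all genes. At day 30 the trend called 596 of all genes and the 6 arrays 237, with 1 of the 43 lower. Median centring gave medians of -0.393 with age in knockout and -0.189 in wild type. It also turned the splits over all genes to 4068 higher and 2815 lower with age in knockout, to 4057 and 2662 in wild type and to 415 and 277 between genotypes at day 15. For the difference of genotype effects, 5 of the 43 were lower with the trend (177 of all genes), 4 without dim genes (159) and 4 with array weights (155). With the macrophage mean 3 were lower (121), and with the replicate block 2, Gla and Ctsl (80). With that block, calls over all genes were 6039 and 5726 with age in knockout and wild type and 611 and 331 between genotypes at day 15 and day 30. The replicate block also ended the wild type call of Ids (-0.244, limma adjusted p = 0.065) and added that of Lamp2 (-0.201, limma adjusted p = 0.044), and changed no other call among the 43. The 6 arrays give no value for the difference of effects.

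With the smooth muscle mean, the higher, lower and all-gene counts and the median were 0, 0, 64 and 0.135 at day 15, 0, 1, 143 and -0.233 with age in knockout, 0, 0, 23 and -0.101 with age in wild type, and 0, 0, 27 and -0.225 for the difference of effects, where 19 of the 43 were lower at an unadjusted p under 0.05 in limma. With the epithelial mean they were 2, 0, 111 and 0.107, then 0, 3, 259 and -0.323, then 0, 0, 29 and -0.196, then 0, 0, 17 and -0.215. For the unadjusted count with the smooth muscle mean, the share over all genes was not counted. The pancreatic acinar mean, chosen after seeing the data, gave 4, 0, 221 and 0.052 at day 15 and called 243 of all genes at day 30. The macrophage mean moved the day 15 median to 0.098. Signs turned, without a call, for wild type age changes with the smooth muscle mean in Galc (0.195), Ids (0.541), Arsb (0.004), Smpd1 (0.322), Ctsh (0.007), Scarb2 (0.143) and Cln3 (0.064), with the epithelial mean in Gusb (0.111), Lgmn (0.292) and Mcoln3 (0.551), and for Ids in knockout with the smooth muscle mean (0.287). The cause was not tested.

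Leaving out each array gave 4990 to 6258 genes with age in knockout, 4561 to 6175 in wild type, 340 to 782 at day 15, 218 to 420 at day 30 and 47 to 123 for the difference of effects. The lowest counts came without knockout replicate 2 (day 15), without wild type replicate 3 (day 30), and for the difference of effects without wild type replicate 2 at day 15 or wild type replicate 3 at day 30. Medians over the 43 were -0.471 to -0.408, -0.290 to -0.237, 0.027 to 0.089, -0.117 to -0.053 and -0.192 to -0.113 in that order. Higher genes were 4 to 5, 5 to 6, 4 to 9, 1 and 0, and lower genes 29 to 31, 23 to 27, 0 to 1, 2 to 3 and 1 to 5. At day 15, Smpd1 alone made up the lower count. Weak array signal limits Mcoln3 and Tfec at day 30.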
